A study of Mus musculus with 6 samples.

Results

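The genes described here are 7 transcription factors known chiefly from the endoderm: the forkhead factors Foxa1, Foxa2 and Foxa3, the HMG-box factor Sox17, the nuclear receptor Hnf4a and the homeobox factors Cdx1 and Cdx2. They were taken by symbol. Every probe set that the platform annotation assigns to exactly 1 of these symbols was kept, which gave 12 probe sets of 45101 on the array and 7 genes of 18194. The genes were chosen with the difference between Pax2 null and heterozygous cells already known, so their values for that difference are descriptions and no p-value is given for them. RNA was measured on 6 arrays of EGFP-positive cells sorted out of dissected mouse intermediate mesoderm at E11.5, a tissue that forms kidneys and gonads. Pax2 null cells (EGFP/EGFP in the sample titles, 3 arrays) were set against Pax2 heterozygote cells (EGFP/+, 3 arrays). Cells of either genotype carry at least 1 EGFP allele, and no wild-type sample is among the 6. The labels do not say whether the embryos of a sample were pooled or came from separate litters, so the SDs below measure the spread between these samples. The SEs are limma's moderated values, which draw each variance towards that of all features. For the most variable probe sets they are therefore smaller than the SDs alone would give.

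Foxa proteins bind compacted chromatin through their forkhead domain and open it for other factors, and they direct the formation of the gut tube and of the liver, pancreas and lung that bud from it. Foxa2 is also made in the notochord and in the floor plate of the neural tube, and Foxa1 and Foxa2 mark the endodermal epithelium of the urogenital sinus, which lies next to the ends of the nephric ducts. Hnf4a acts in liver and gut epithelium and, in the kidney, in the proximal tubule. Sox17 marks early endoderm and also arterial endothelium. Cdx1 and Cdx2 specify the intestine and pattern the posterior body axis.

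Promoter windows were taken from RefSeq, assembly GRCm38.p6, from 250 bases before to 50 bases after an annotated start. They were used for 5 of the 7 genes, with 8 windows. Sox17 had no window, and Cdx1 was left out of the search. The windows of the members whose levels differed most between the genotypes are shown, 5′ to 3′ on the gene's strand. Capitals mark a forkhead core (TGTTTAC or TATTTAC, either strand) or the half-site of the Hnf1 motif (GTTAAT, either strand). Foxa1 is on the minus strand at chr12:57546062-57546361. Foxa2 is on the minus strand, and 2 of its 3 windows are shown, at chr2:148046920-148047219 and chr2:148045415-148045714. Hnf4a is on the plus strand and has 2 windows, chr2:163506607-163506906 at the upstream start and chr2:163546905-163547204 at the downstream start.
Foxa1: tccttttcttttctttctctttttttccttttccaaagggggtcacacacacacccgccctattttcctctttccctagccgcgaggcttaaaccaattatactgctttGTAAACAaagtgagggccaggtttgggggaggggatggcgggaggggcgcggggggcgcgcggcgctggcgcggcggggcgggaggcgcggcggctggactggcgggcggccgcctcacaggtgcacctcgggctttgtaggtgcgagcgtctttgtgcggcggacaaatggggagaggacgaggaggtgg
Foxa2, farthest upstream start: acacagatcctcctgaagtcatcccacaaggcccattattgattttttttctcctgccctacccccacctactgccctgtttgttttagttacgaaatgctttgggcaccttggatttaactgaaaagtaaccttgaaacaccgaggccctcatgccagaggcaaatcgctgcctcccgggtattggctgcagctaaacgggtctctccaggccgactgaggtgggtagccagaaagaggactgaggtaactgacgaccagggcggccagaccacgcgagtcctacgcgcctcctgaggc
Foxa2, farthest downstream start: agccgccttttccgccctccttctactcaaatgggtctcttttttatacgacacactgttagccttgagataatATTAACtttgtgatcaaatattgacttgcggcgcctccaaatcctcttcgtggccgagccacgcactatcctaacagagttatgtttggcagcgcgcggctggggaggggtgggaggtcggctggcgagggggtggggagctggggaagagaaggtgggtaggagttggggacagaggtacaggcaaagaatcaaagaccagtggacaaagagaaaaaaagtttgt
Hnf4a, upstream start: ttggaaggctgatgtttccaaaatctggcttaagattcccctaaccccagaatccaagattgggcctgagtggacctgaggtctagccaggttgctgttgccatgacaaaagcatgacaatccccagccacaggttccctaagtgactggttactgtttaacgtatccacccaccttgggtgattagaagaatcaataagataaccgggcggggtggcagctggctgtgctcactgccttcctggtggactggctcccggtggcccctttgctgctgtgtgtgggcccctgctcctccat
Hnf4a, downstream start: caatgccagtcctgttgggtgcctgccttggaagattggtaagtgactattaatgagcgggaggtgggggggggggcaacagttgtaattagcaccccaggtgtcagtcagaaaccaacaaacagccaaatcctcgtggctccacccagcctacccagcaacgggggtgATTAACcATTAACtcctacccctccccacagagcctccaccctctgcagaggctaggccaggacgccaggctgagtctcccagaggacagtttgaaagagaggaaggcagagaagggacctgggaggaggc
The forkhead core was found at position 110 of the Foxa1 window, and in 6.54% of 32851 windows of this length. It was in none of the 3 Foxa2 windows, nor in those of Hnf4a and Foxa3, and the Cdx2 window held it at position 211. The Hnf1 half-site was found at positions 170 and 177 of the downstream Hnf4a window and at position 75 of the downstream Foxa2 window. The Cdx2 window held it at position 221, and 7.10% of all windows held at least 1. The full Hnf1 motif and the Hnf4 core CAAAGTCCA were in none of the 8 windows, and are in 0.00913% and 0.475% of all. A match in letters is a description of the sequence and not of binding.

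All 6 arrays had median log2 values between 6.12 and 6.24. The labels give no batch, but the bacterial hybridization controls joined the arrays into 3 pairs, each with 1 array of either genotype: null 3 with heterozygote 1 (pair 1), null 1 with heterozygote 2 (pair 2) and null 2 with heterozygote 3 (pair 3). The mean control level for bioB in the null and heterozygote array was 10.55 and 10.52 for pair 1, then 8.20 and 7.81 for pair 2, then 7.23 and 7.24 for the last. Each difference of the 7 genes is therefore also given within pairs, in the order 1, 2, 3. Of the labelled tissue, all 9 measured markers of the nephric duct and all 10 of the metanephric mesenchyme averaged above 4.81 over both genotypes. That level is the 33rd percentile of all probe sets, and 13428 of all 18194 genes averaged above it. A duct marker was under it in null cells, at 4.52 ± 1.22 (SD, n = 3). Of the duct markers 0 rose and 4 fell in null cells, with a median difference of -1.28, and of the mesenchyme markers 1 rose and 3 fell, with a median of -0.75 (limma, adjusted p under 0.05). With the pair block 5 fell in each list. With 1 array left out the calls numbered 2 to 4 and 1 to 4, being 2 for the duct without null 1, heterozygote 2 or heterozygote 3. For the mesenchyme they were 1 without any of the same 3 arrays and 2 without null 2. Their part in the differences below was not tested. The level of 4.81 is used below to call a probe set dim. RMA values of dim probe sets are compressed towards each other, so their differences are understated. Of the 18194 genes, 253 differed between the genotypes (limma, adjusted p under 0.05).

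Foxa2 was the member with the largest rise in null cells, and it was dim in heterozygotes. It stood at 6.90, 7.36 and 8.07 in the 3 null arrays and at 4.33, 4.58 and 4.58 in the 3 heterozygote arrays (log2). Every null array lay above every heterozygote array, with a gap of over 2 log2 units between the groups. All 3 heterozygote values were under the dim level of 4.81 and all 3 null values were above it. The means were 7.44 ± 0.59 in null and 4.50 ± 0.15 in heterozygote cells (SD, n = 3 each), a difference of 2.94 ± 0.29 (SE), or 7.69-fold. Its 3 within-pair differences were 3.74, 2.31 and 2.78, pair 1 having the widest. Its size was at percentile 99.9 of all 34958 probe sets with 1 symbol. In these sorted pools, more Foxa2-positive cells and more Foxa2 RNA per cell cannot be told apart.

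Foxa1, the paralogue that acts together with Foxa2 in many endodermal organs, lay in the same direction at a far lower signal. Its values were 4.06, 4.37 and 5.85 in null arrays and 3.82, 3.63 and 3.61 in heterozygote arrays. The groups did not overlap, but null 3 was the single array above the dim level. The mean difference was 1.07 ± 0.42 (SE), with 2.03, 0.42 and 0.76 as its 3 within-pair differences, and it was 0.52 without null 3. Null 3 was also the highest array for Foxa2. Foxa3, the family member best known from the liver, had values of 4.61, 4.92 and 5.06 in null arrays and 5.17, 4.58 and 4.32 in heterozygote arrays. These overlapped, and the difference was 0.17 ± 0.25 (SE), with -0.11, 0.03 and 0.60 within pairs.

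**Figure D1:**
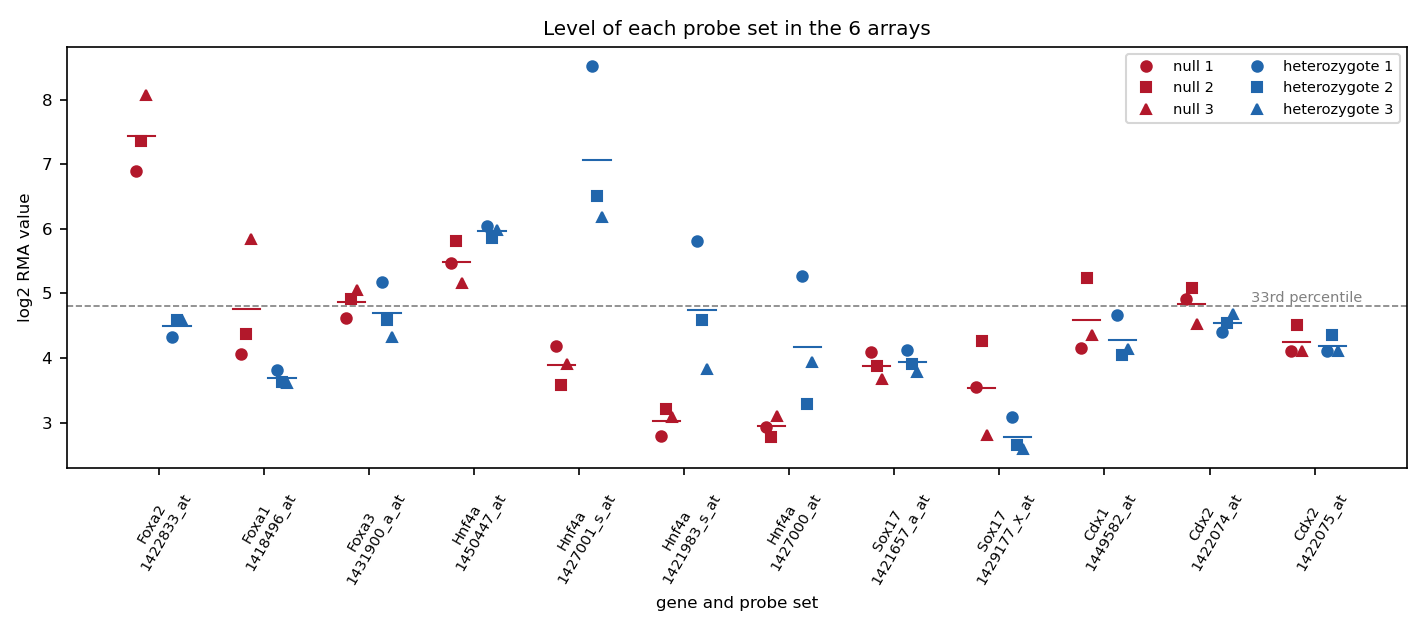
Log2 RMA value (y axis) of the 12 probe sets of the 7 genes (x axis) in each array, with null arrays in red on the left of each position and heterozygote arrays in blue on the right. Short lines are means of 3 arrays and the dashed line is the 33rd percentile of all probe sets, 4.81. Foxa2 separates upwards and 1427001_s_at of Hnf4a downwards, each by over 1 log2 unit between the nearest arrays, and the other Hnf4a probe sets separate less, while the Sox17, Cdx1, Cdx2 and Foxa3 probe sets lie near or under the dashed line.

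Hnf4a went the opposite way, and its 4 probe sets disagreed strongly in size. The probe set 1427001_s_at had log2 values of 4.18, 3.58 and 3.91 in null arrays and 8.52, 6.51 and 6.17 in heterozygote arrays. All null arrays were dim and all heterozygote arrays were not, heterozygote 1 being the highest by about 2 log2 units. The difference was -3.18 ± 0.55 (SE), or 9.04-fold lower in null, with -4.60, -2.33 and -2.59 in pairs 1, 2 and 3. Its size was at percentile 99.9 of the probe sets, as for Foxa2.

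A pair of further Hnf4a probe sets had the same direction at lower signal. For 1421983_s_at the values were 2.79, 3.20 and 3.08 in null arrays and 5.81, 4.59 and 3.83 in heterozygote arrays, with a difference of -1.72 ± 0.44 (SE) and -2.73, -1.80 and -0.63 within pairs. For 1427000_at they were 2.93, 2.79 and 3.11 in null arrays and 5.27, 3.29 and 3.94 in heterozygote arrays, with a difference of -1.23 ± 0.44 (SE) and -2.16, -0.36 and -1.16 within pairs. Without heterozygote 1 that difference was -0.68. In either probe set heterozygote 1 was again the highest array and the groups did not overlap.

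The remaining Hnf4a probe set, 1450447_at, differed least. It had 5.48, 5.82 and 5.17 in null arrays and 6.04, 5.86 and 5.98 in heterozygote arrays, a difference of -0.47 ± 0.20 (SE) with -0.87, -0.38 and -0.16 within pairs. The groups did not overlap, although null 2 and heterozygote 2 were only narrowly apart. This probe set had the highest mean of the 4, 5.72 against 5.48 for 1427001_s_at, so a rule that takes a gene's brightest probe set gives -0.47 for Hnf4a and leaves the larger differences unseen. The mean over the 4 probe sets was -1.65. Of 9012 genes with several probe sets, Hnf4a alone had a brightest probe set that differed by under 0.5 and another by over 2 log2 units, limits that were set after its values were seen. The sources used here do not place the 4 probe sets on the transcripts. Hnf4a is read from the alternative starts whose windows are shown above, and in the platform's naming the ending _s_at marks probes shared by several transcripts. Hnf4aos, the antisense gene at the same locus, stood at 4.94 ± 0.13 in null and 5.05 ± 0.14 in heterozygote cells (SD, n = 3 each) and did not differ past the threshold (limma, adjusted p = 0.978).

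The 3 other genes were dim in nearly all arrays. The first Sox17 probe set, 1421657_a_at, lay between 3.67 and 4.10 in null arrays and between 3.78 and 4.13 in heterozygote arrays, a difference of -0.05 ± 0.18 (SE) with -0.45, 0.20 and 0.09 within pairs. The second, 1429177_x_at, had 3.56, 4.26 and 2.80 in null arrays and 3.08, 2.65 and 2.59 in heterozygote arrays, which overlapped. Its difference of 0.77 ± 0.35 (SE) had the opposite sign to the first, and its pair values were -0.28, 0.90 and 1.67.

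Cdx1 ranged from 4.16 to 5.23 in null arrays and from 4.04 to 4.67 in heterozygote arrays, with a difference of 0.30 ± 0.31 (SE). Null 2 was the single array above the dim level. Its pair differences of -0.32, 0.12 and 1.09 did not share a sign. The brighter Cdx2 probe set, 1422074_at, ranged from 4.52 to 5.08 in null arrays and from 4.40 to 4.68 in heterozygote arrays, a difference of 0.29 ± 0.19 (SE) that was positive in all 3 pairs (0.12, 0.36 and 0.40). The other, 1422075_at, stood at 4.11 in 2 null and 2 heterozygote arrays and differed by 0.05 ± 0.18 (SE), with pair values from -0.25 to 0.40. For Sox17, Cdx1, Cdx2 and Foxa3 the arrays thus held little signal above the dim level in either genotype.

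**Figure D2:**
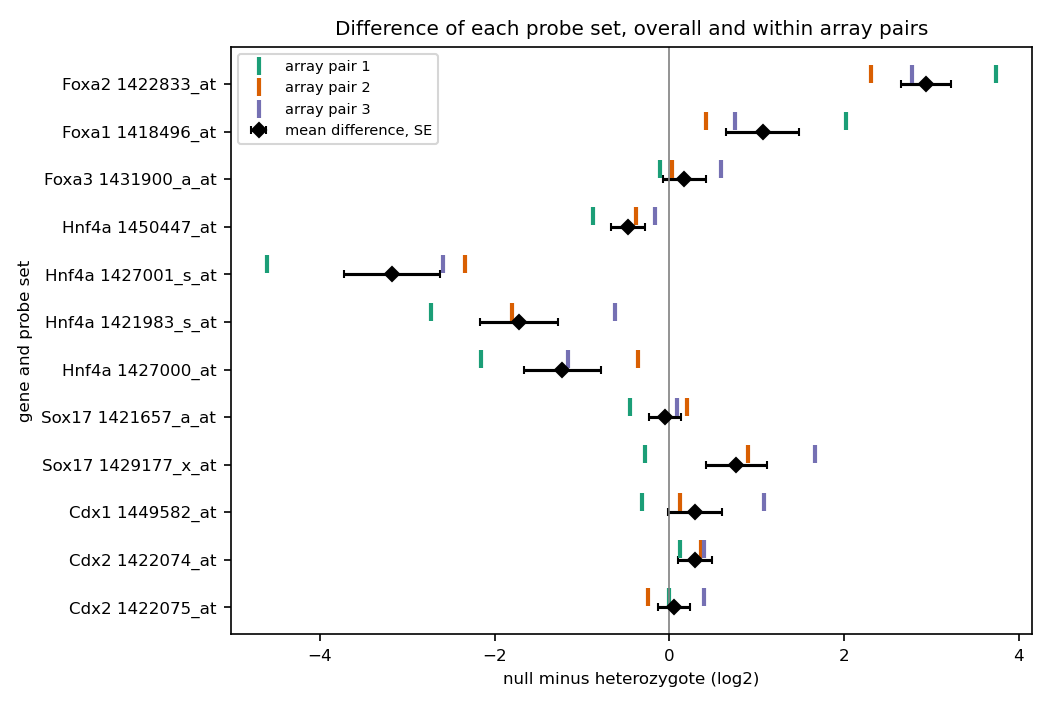
Difference in log2 value, null minus heterozygote (x axis), for each of the 12 probe sets (y axis). Diamonds with bars are the mean difference with its SE from the fit, and coloured ticks are the differences within the 3 array pairs. Foxa2 lies right of 0 and all 4 Hnf4a probe sets lie left of 0 in every pair, and pair 1 has the widest difference for Foxa2, Foxa1 and each Hnf4a probe set.

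Counted over the 12 probe sets, 6 had arrays that did not overlap between the genotypes, the Foxa1 and Foxa2 probe sets being higher in null and the 4 of Hnf4a lower. Among all 34958 probe sets 12.7% did not overlap, 6.05% higher and 6.6% lower. In the fit on all probe sets 2 of the 12 passed limma's adjusted threshold, Foxa2 and 1427001_s_at of Hnf4a, where 1.07% of all did. With each gene represented by its brightest probe set, Foxa2 was the 1 of 7 to pass, as a higher gene, where 1.39% of all genes did (0.808% higher and 0.583% lower), or 4.53% with the pair as a block. Since the genes were chosen on this difference, nothing is read from these counts. Foxa2 passed in each fit with 1 array left out, whereas the Hnf4a probe set passed in the fit without heterozygote 1 and was lost without null 1, null 2, null 3, heterozygote 2 or heterozygote 3. With the array pair as a block both passed, as did 2.89% of probe sets. Of the 12 probe sets 9 averaged under the dim level. Foxa2 averaged above it through its null arrays and 1427001_s_at of Hnf4a through its heterozygote arrays, while 1450447_at of Hnf4a was above it in all 6.

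Foxa2 was next set beside the rest of its family. Of 37 forkhead genes it was the 1 that passed (limma, adjusted over all genes). It was chosen on this difference, so nothing is read from its place among them. Of the 34 outside the Foxa group, 0 passed in limma without or with the pair block, and 2 had an unadjusted p under 0.05. Over all 18194 genes 1.39% passed and 1770 had an unadjusted p under 0.05, so counts this low in 34 genes are near the background. Their median difference was 0.01, against -0.02 over all 18194 genes, and their differences ranged from -0.40 to 0.83. The factors of stroma and paraxial mesoderm were among the bright ones, with Foxd1, the marker of cortical stroma, at 9.69 ± 0.21 in null and 9.14 ± 0.26 in heterozygote cells (SD, n = 3 each). The highest difference of the 34 was that of Foxp2, with 8.43 ± 0.09 in null and 7.60 ± 0.55 in heterozygote cells, which did not pass (limma, adjusted p = 0.273).

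Some other genes listed as regulators of the gut endoderm rose as well, and in which cells they rose was not tested. Of 21 measured genes of this list 2 rose and 0 fell, where 1.39% of all genes passed, and the median difference was 0.07. Gata5, a zinc-finger factor of heart and gut endoderm, had 8.53, 9.06 and 8.78 in null arrays and 7.09, 6.88 and 6.60 in heterozygote arrays. It rose by 1.93 ± 0.20 (SE; limma, adjusted p = 0.00590), with no overlap between the groups. Gata6, required for extraembryonic and gut endoderm, rose by 1.41 ± 0.17 (limma, adjusted p = 0.0106, and 0.0538 without null 1). The signal Shh, whose gene Foxa2 is known to activate in notochord and floor plate, stood at 7.26 ± 0.09 in null and 5.83 ± 0.74 in heterozygote cells (SD, n = 3 each). That difference did not pass (limma, adjusted p = 0.113, and 0.00878 without heterozygote 1), and the second Shh probe set had the opposite sign (-0.13). Gata4 (1.45 ± 0.43) and Pax9 (1.03 ± 0.32) missed the threshold (adjusted p in limma = 0.224 and 0.249). Fitted with the array pair as a block both passed (adjusted p in limma = 0.0355 and 0.0163), which made 4 risers in the list. Pdx1, Sox2, Mnx1 and Onecut1, which define pancreas, foregut and liver domains, had means between 2.78 and 4.78 in both genotypes. The general epithelial gene Epcam was bright in either genotype, at 11.37 ± 0.11 in null and 11.42 ± 0.17 in heterozygote cells.

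Genes of differentiated endodermal organs came next. Above the dim level on average were 12 of 18 measured liver and yolk sac genes and 11 of 21 hindgut and intestinal genes. Over all genes 13428 of 18194 were, a larger share. Of the 18 genes for proteins secreted by liver and yolk sac, 0 rose and 1 fell, with a median of -0.04. The gene that fell was Apom, an apolipoprotein gene also expressed in kidney tubules, with 6.05, 6.31 and 6.58 in null arrays and 8.62, 7.54 and 7.99 in heterozygote arrays. It fell by 1.74 on the log2 scale (limma, adjusted p = 0.0295), a call lost without heterozygote 3 or any 1 null array (adjusted p up to 0.111). Alb, the albumin gene and the defining liver marker, stood at 5.77 ± 0.07 in null and 5.54 ± 0.18 in heterozygote cells. Afp, the fetal counterpart, had 5.42, 4.77 and 7.22 in null arrays and 8.49, 7.71 and 5.71 in heterozygote arrays, which overlapped (adjusted p in limma = 0.674, or 0.0432 when pairs were a block).

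Of 21 measured hindgut and intestinal genes 1 rose and 0 fell, with a median of 0.00. It was Krt20, a keratin of intestinal and urothelial surface cells, at 5.19 ± 0.34 in null and 3.81 ± 0.15 in heterozygote cells (SD, n = 3 each; limma, adjusted p = 0.0206, up to 0.0991 with 1 array left out). Its call was lost without null 2, null 3, heterozygote 2 or heterozygote 3. In this list 6 genes were higher in null without overlap and 2 were lower, against 1180 and 1303 of all 18194 genes. Of the higher ones that did not pass, the largest were Fabp1 (1.17 ± 0.45), Hoxb13 (0.70 ± 0.26) and Evx1 (0.47 ± 0.18). Their adjusted p in limma was 0.428, 0.407 and 0.414. The microvillus gene Vil1 and the glucose transporter gene Slc5a1, which intestine and kidney tubule share, had differences of -0.85 ± 0.25 and -1.18 ± 0.27 that did not pass (limma, adjusted p = 0.233 and 0.106). In both genes, as in Hnf4a, heterozygote 1 was the highest array, at 6.02 for Vil1 and 6.45 for Slc5a1. Cdx4, the paralogue of Cdx1 and Cdx2, and the intestinal cadherin gene Cdh17 stood between 2.53 and 2.78 on average in both genotypes.

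Of 19 measured genes of the urogenital sinus and its urothelium 6 rose and 0 fell, with a median of 0.26. Over all genes 0.808% rose and 0.583% fell. With the pair block 8 rose and 1, Ehf, fell (-0.71 ± 0.17), where 4.53% of all genes passed. This list was written with earlier results of these data known, so its counts are descriptions. Beside Trp63 and Gjb2, the risers without the block were the basal keratin gene Krt5, the uroplakin gene Upk1a and the epithelial transcription factor genes Grhl1 and Grhl3. Krt5 had 6.76, 6.69 and 7.26 in null arrays and 4.88, 5.11 and 5.37 in heterozygote arrays (limma, adjusted p = 0.0103). Upk1a had 9.23, 9.48 and 8.37 in null arrays and 6.44, 6.92 and 6.74 in heterozygote arrays (limma, adjusted p = 0.0119, and up to 0.0586 without null 1 or heterozygote 3). Grhl3 rose by 2.40 ± 0.41 (limma, adjusted p = 0.0342) and Grhl1 by 1.19 ± 0.18 (limma, adjusted p = 0.0206). The call of Grhl3 was lost without null 2, null 3, heterozygote 2 or heterozygote 3 (adjusted p up to 0.137), and that of Grhl1 without any 1 array but heterozygote 1 (up to 0.100). Upk1b, Upk2, Upk3a, Krt14 and Psca, further genes of these epithelia, had group means between 4.33 and 5.38 and did not pass. The mean log2 level of the list lay between 6.90 and 7.15 in null arrays and between 5.96 and 6.21 in heterozygote arrays. What part such cells had in the Foxa2 signal was not tested.

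Lists for other places where Foxa2 or Sox17 is active were then counted. Of 14 floor plate and notochord genes 0 passed (limma; 3 had an unadjusted p under 0.05, and 1 passed with the pair block, Sulf1), and with 14 genes these counts too can be set against 1.39% called and 4.53% called with the block. The 3 were Shh, given above, Sulf1 (1.13 ± 0.28) and Spon1 (0.66 ± 0.26), each higher in null without overlap. Of the 4 Spon1 probe sets only 2 had this sign, the lowest difference being -0.18. Without heterozygote 1 there were 2 calls, Shh and Sulf1. Of the list's 14 differences 8 were positive, and the floor plate markers Ntn1 and Nkx2-2 had differences of -0.66 ± 0.38 and -0.20 ± 0.19, and Nkx2-2 stood at 2.89 ± 0.16 in null and 3.09 ± 0.28 in heterozygote cells. The list's mean log2 level was 5.98 to 6.13 in null and 5.80 to 6.09 in heterozygote arrays. Of 9 gut mesenchyme genes 0 passed (limma; 1 had an unadjusted p under 0.05, and 0 passed with the pair block). The hedgehog response list held pathway components such as Smo, Boc, Cdon and Gas1 beside read-outs, so its signs do not measure the pathway's activity. All 9 of its measured genes had a positive difference with a median of 0.35, where 8439 of all 18194 genes did. Gli1, a transcriptional read-out of the pathway, rose with 9.26, 9.16 and 8.85 in null arrays and 7.58, 7.86 and 7.41 in heterozygote arrays. Its adjusted p in limma was 0.0123, and up to 0.0642 without null 1, null 2 or heterozygote 3. Ptch1, also in the list and bright, differed by 0.17 ± 0.18 and did not pass (limma, adjusted p = 0.958). With the pair block 2 of the 9 passed, the second being Hhip, a hedgehog-binding inhibitor (0.77 ± 0.22; limma, adjusted p = 0.191 without the block and 0.0397 with it). Among 15 endothelial genes, which share Sox17 as a marker, Fli1 rose (1.48 ± 0.19; limma, adjusted p = 0.0125, up to 0.0608 without null 1, heterozygote 2 or heterozygote 3) and 0 fell. With the pair block Erg also passed, as lower in null (-0.88 ± 0.23; limma, adjusted p = 0.152 without the block and 0.0295 with it). Of the 15 differences 9 were positive. The defining genes Pecam1 and Cdh5 differed by 0.08 ± 0.15 and 0.46 ± 0.48, and Sox18, a close relative of Sox17, by 0.30 ± 0.25.

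**Figure D3:**
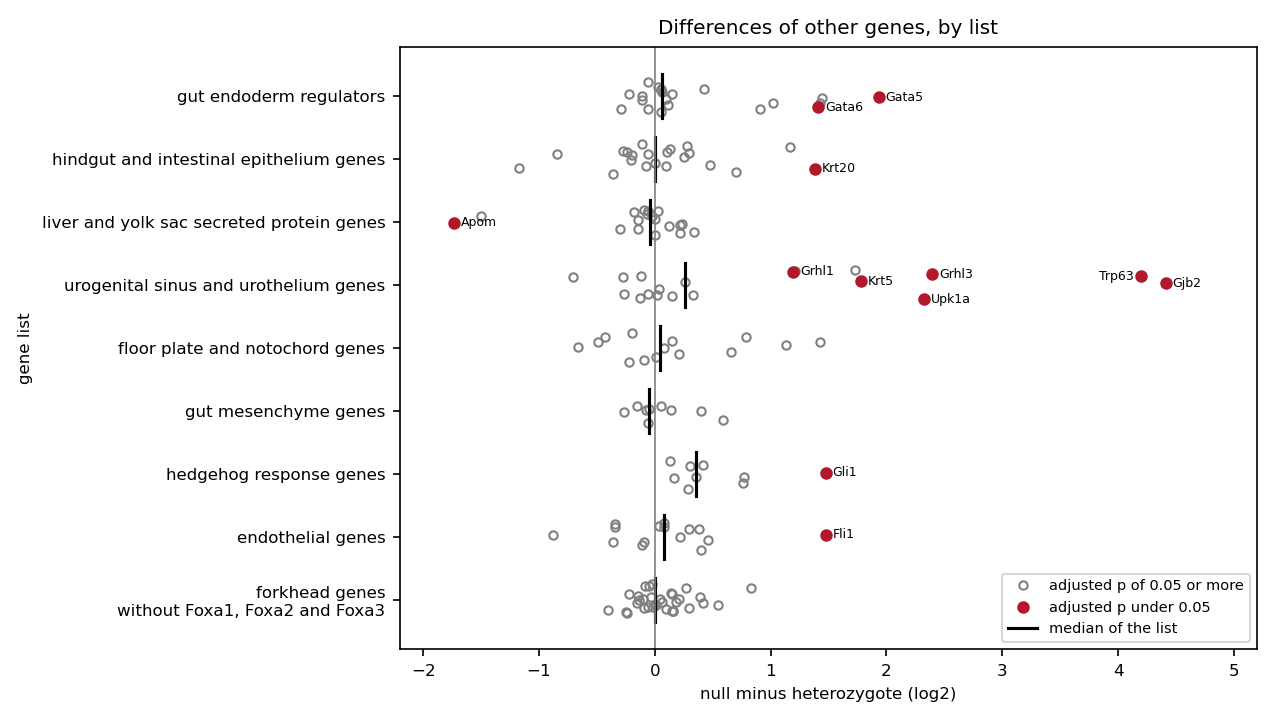
Difference in log2 value, null minus heterozygote (x axis), of each measured gene in 9 gene lists (y axis), with vertical position inside a list drawn at random. Filled red points passed limma's adjusted threshold of 0.05 and are named, open points did not, and black bars are list medians. The urogenital sinus and urothelium list has 6 named genes, against 2 in the gut endoderm list and 0 among the other forkhead genes. The lists were written with earlier results of these data known.

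The genes whose profile over the 6 arrays lay nearest to a member were found as those with the smallest root mean square difference between log2 values centred on their own mean. Genes picked this way share a member's separation and highest array largely through the picking, so nothing is read from that likeness. Nearest to Foxa2 were Wnt3 (0.37), Wif1 (0.44), Mir205hg (0.46), Tmem132c (0.53) and Wnt10a (0.53). Wnt10a, a Wnt ligand gene, averaged 6.76 ± 0.87 in null and 4.75 ± 0.22 in heterozygote cells (SD, n = 3 each). It did not pass (limma, adjusted p = 0.0583), and null 3 was its highest array, at 7.68, as it was for Foxa2. Mir205hg, the host transcript of a microRNA, stood at 6.95 ± 0.25 in null and 4.65 ± 0.08 in heterozygote cells (SD, n = 3 each). Nearest to Foxa1 were Calcb (0.09), Corin (0.18), Fabp1 (0.18), Pcdhb15 (0.23) and Tox2 (0.24), all highest in null 3. Cdx1 also ranged over more than 1 log2 unit, and its nearest genes were Srgn (0.08), Aph1b (0.08), St3gal3 (0.10), BC147527 (0.11) and BC080696 (0.11), none of which passed in limma (adjusted p from 0.788 to 0.989).

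Nearest to the Hnf4a probe set 1427001_s_at were Cltrn (0.33), Slc2a2 (0.48), Chst13 (0.49), Gm32960 (0.52) and Spink8 (0.52). Cltrn, which encodes an amino acid transporter partner, had 3.63, 3.11 and 3.64 in null arrays and 7.56, 6.05 and 6.33 in heterozygote arrays. Slc2a2, a glucose transporter gene, had 2.95, 3.01 and 2.93 in null arrays and 6.64, 4.58 and 4.74 in heterozygote arrays. It did not pass (limma, adjusted p = 0.0758). In each of the 5, as in Hnf4a, heterozygote 1 was the highest array and the genotypes did not overlap. That follows largely from picking the nearest profiles. Nearest to 1421983_s_at were Sox8, Anxa13, Folr1, Keg1 and Mia, at 0.15 to 0.24, and nearest to 1427000_at were Scin, Slc47a1, Ocln, Asb9 and Tmem150c, at 0.07 to 0.23. Since this distance is not scaled, it depends on the size of the change, which differed between the 3 probe sets.

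**Figure D4:**
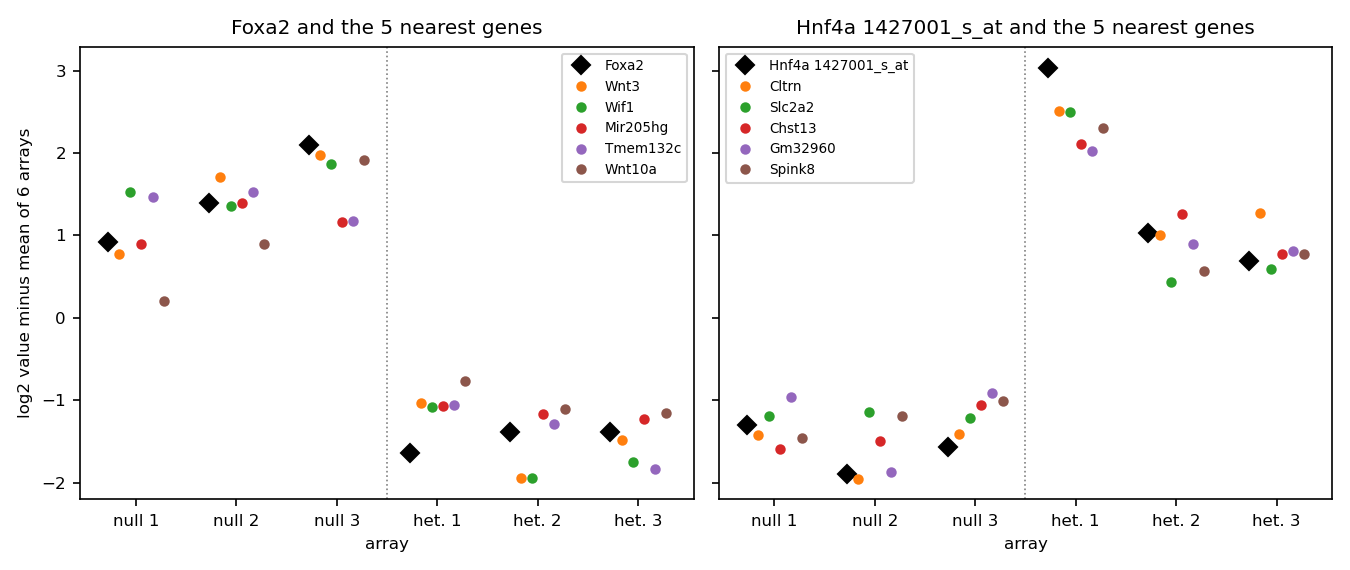
Log2 value minus the gene's mean over 6 arrays (y axis) in each array (x axis), for Foxa2 on the left and the Hnf4a probe set 1427001_s_at on the right (black diamonds), each with its 5 nearest genes (coloured points). Foxa2 and its nearest genes are above 0 in all null arrays and below 0 in all heterozygote arrays, and the Hnf4a group is the reverse with its highest values in heterozygote 1. The nearest genes were picked by this profile, so the likeness is largely built in.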

How the data were processed

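RNA of EGFP-positive cells was amplified from 10 ng and hybridized to a 1-colour Affymetrix mouse array, per the labels' protocols. Each probe set has 1 log2 value per array in the authors' deposited table. The submitters' processing notes name affy, RMA and limma without versions, and the sources used here give no settings. Arrays carry no read depth, and the number of arrays limits the precision.

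Probe sets were named from the platform annotation: 34958 of 45101 had exactly 1 symbol, 932 had several and 9211 were not listed. Gene identifiers of 34754 matched RefSeq (GRCm38.p6). The genotypes were compared by lmFit and eBayes of limma 3.58.1, run under R 4.3.3 (two-sided, no covariates, no filter, Benjamini-Hochberg over all features, threshold 0.05). Genes were represented by their probe set with the highest mean, and the fit for the members' probe sets ran on all 34958. The fit was tested on simulated data. Promoter sequences are RefSeq's.

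Array pairs were matched on 14 bacterial control probe sets, out of 15 possible matchings, the closest summing to 1.94 log2 units and the runner-up to 5.05. The pairs are not in the labels. The members, the 10 gene lists and the rule for named genes (list genes that passed, otherwise the 4 with the smallest p, and the 5 nearest genes of members ranging over more than 1 log2 unit) were chosen with earlier results of these data known. Other genes named were chosen after their values were seen. Pax2 itself is not reported here. Alternatives were renewed quantile normalization, median centring, a filter at the 33rd percentile, the mean over probe sets, every probe set as a unit, an intensity-dependent prior, the pair block, and omission of each array or pair.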

Additional observations from a re-analysis of the deposited data

How the results depend on the processing

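No paired analysis by replicate number was possible because the labels give the 2 genotypes no shared numbers, and the array pairs came from the control probe sets. The count of 253 changed genes was 824 with the array pair as a block, 1 without array pair 2 and 2 without array pair 3, and lay between 84 and 318 with 1 array left out. It was 86 without null 1, 110 without null 2, 98 without heterozygote 2 and 84 without heterozygote 3. The urogenital sinus and urothelium list held 3 to 8 calls with 1 array left out, in place of 6. The Foxa2 difference stayed between 2.55 and 3.26 in the alternatives run, and that of Hnf4a 1427001_s_at between -3.62 and -2.45. The Hnf4a difference of -0.47 at the brightest probe set became -1.65 as the mean over probe sets. For Sox17, -0.05 became 0.36 as the mean over probe sets and 0.15 without array pair 1. Without pair 2 or pair 3, 0 members passed. A filter at the 33rd percentile kept 2 of the 7 genes, Foxa2 and Hnf4a, and Foxa2 averaged above it through its null arrays. Of 20 named list or nearest genes past the threshold, 10 stayed past it whichever array was omitted.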
